A study of Homo sapiens with 24 samples.

Results

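The 47 genes described here encode the proteins that mark, open and copy replication origins and that build the moving replication fork. They were chosen by name, as the rows of the gene count table whose Ensembl identifier maps to the listed symbols. The rule uses no measured value, but the list was drawn up with earlier results of these data known. All 47 were found among the 60668 rows of the table, and all 47 were among the 22158 genes that passed the filter on low counts. RNA sequencing was done on MCF-10A, an immortalised, non-tumorigenic line of human mammary epithelial cells, grown as 3D cultures on a gel of basement membrane proteins. One line was the parental MCF-10A. The other, MYC-ER, carries a fusion of the transcription factor MYC with the ligand-binding domain of the oestrogen receptor, which 4-hydroxytamoxifen (4-OHT) switches on. The promoter that drives the fusion, and whether the line is 1 clone, are not given in the sources used here.

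Both lines were seeded at 10000 cells per well, and 4-OHT at 1 µM was present for the last 0, 8, 24 or 48 h before all cultures were collected together on day 5. There were thus 8 groups: parental cells with 0, 8, 24 and 48 h of 4-OHT, and MYC-ER cells with 0, 8, 24 and 48 h of 4-OHT, each with 3 libraries. The 0 h cultures received no 4-OHT. The parental cells received the same drug for the same times and so carry its effect without the fusion. The comparisons ask how the replication genes followed MYC activation over time, and whether the drug alone moved them.

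Replication begins with licensing. The origin recognition complex (ORC), CDC6 and CDT1 load the ring of MCM2 to MCM7 onto DNA in G1, and geminin (GMNN) blocks CDT1 afterwards so that no origin is loaded again in the same cycle. In S phase CDC45 and the GINS complex turn the loaded ring into an active helicase, polymerase alpha and primase start each strand, polymerases delta and epsilon extend it on the sliding clamp PCNA, and nucleases and ligase join the lagging strand pieces. Many of these genes are transcribed mainly in proliferating cells, around the passage from G1 to S, under E2F factors, and MYC is known to drive cells into that passage.

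Library totals ranged from 136860029 to 182438505 counts. The markers of basal mammary epithelium (KRT5, KRT14, KRT17, TP63, ITGB4 and CDH3) summed to 10400 to 16000 CPM (counts per 1000000 scaled library counts) in MYC-ER libraries and to 18100 to 29600 CPM in parental libraries. In MYC-ER cells this sum was 14500 to 15000 CPM at 0 h and 10500 to 10900 CPM at 24 h, and its part in the results was not tested. Of the 3 adipocyte markers, 2 were at 0 counts throughout. The summed fibroblast markers stood at 370.0 to 377.0 CPM in MYC-ER cells at 0 h and at 77.3 to 133.0 CPM in the other 7 groups. This sum was highest where the replication genes were lowest, and its part in their levels was not tested. In bulk RNA, fewer cycling cells and less RNA per cell cannot be told apart. Replicates were wells in the labels, so the p-values measure the spread between these samples, which may be technical. One library, parental 0 h replicate 2, differed from its 2 replicates for many of these genes. For POLD2, the second subunit of polymerase delta, the parental 0 h libraries held 232, 169.8 and 239 CPM. Counts that move by over 1.5 times without it are given beside the result.

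In MYC-ER cells the replication genes were low before 4-OHT, most rose by 8 h, all were highest at 24 h and all had fallen again by 48 h. At 24 h against 0 h all 47 genes were higher at an adjusted p of 0.05 (edgeR's quasi-likelihood test, Benjamini-Hochberg over all tested genes). Of all tested genes, 30.4% were called higher and 31.2% lower. The median log2 change of the 47 was 2.55, against -0.02 for all tested genes. The smallest rise was 0.78 ± 0.07 (log2, SE) for GINS3 and the largest was 7.58 ± 0.10 for CDC45, both parts of the active helicase. In 43 of the 47 the rise was at least 2-fold, against 15.2% of all genes, and in 19 it was at least 10-fold, against 3.77%. Every one of the 47 had its highest MYC-ER group mean at 24 h. This held with library size alone, with upper-quartile scaling and without any 1 library, and was not recomputed for the other alternatives. The share of all tested genes with their highest mean at 24 h was not computed. The shared time of the highest mean therefore cannot be called particular to the 47.

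At 8 h, 42 genes were higher and 4 lower, against 32.2% and 35.4% of all tested genes. The 4 lower genes were GINS3, DNA2, RPA3 and LIG1, and MCM7 was not called. At 48 h against 0 h, 40 genes were still higher and 3 were lower, against 23.4% and 20.7% of all genes. The 3 lower genes were GINS3, MCM4 and RPA2, and the fall of MCM4 and RPA2 was lost when counts were scaled by library size alone. The median changes were 1.21 at 8 h and 0.88 at 48 h, against -0.10 and 0.03 for all genes. With library size alone, 7212 of the 22158 tested genes were higher at 48 h, against 5179 in the main scaling. As shares of all calls these were 73.8% and 53.0%. Of the 47, 42 were then higher and 1 lower. Shares of calls, here and below, are of called genes and not of tested genes. Between 8 and 24 h, 46 genes rose, while 28.4% of all genes were called higher and 27.1% lower. Between 24 and 48 h all 47 fell, while 28.2% of all genes were called higher and 25.5% lower. In that last step 42 genes fell at least 2-fold, against 7.22% of all genes. The changes ran from -0.61 ± 0.07 for the clamp loader subunit RFC1 to -3.49 ± 0.10 for MCM10. With library size alone, 67.8% of all calls between 8 and 24 h were higher, against 51.2% in the main scaling. In all, 36 of the 47 were higher at each of the 3 times, against 12.2% of all genes.

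**Figure D1:**
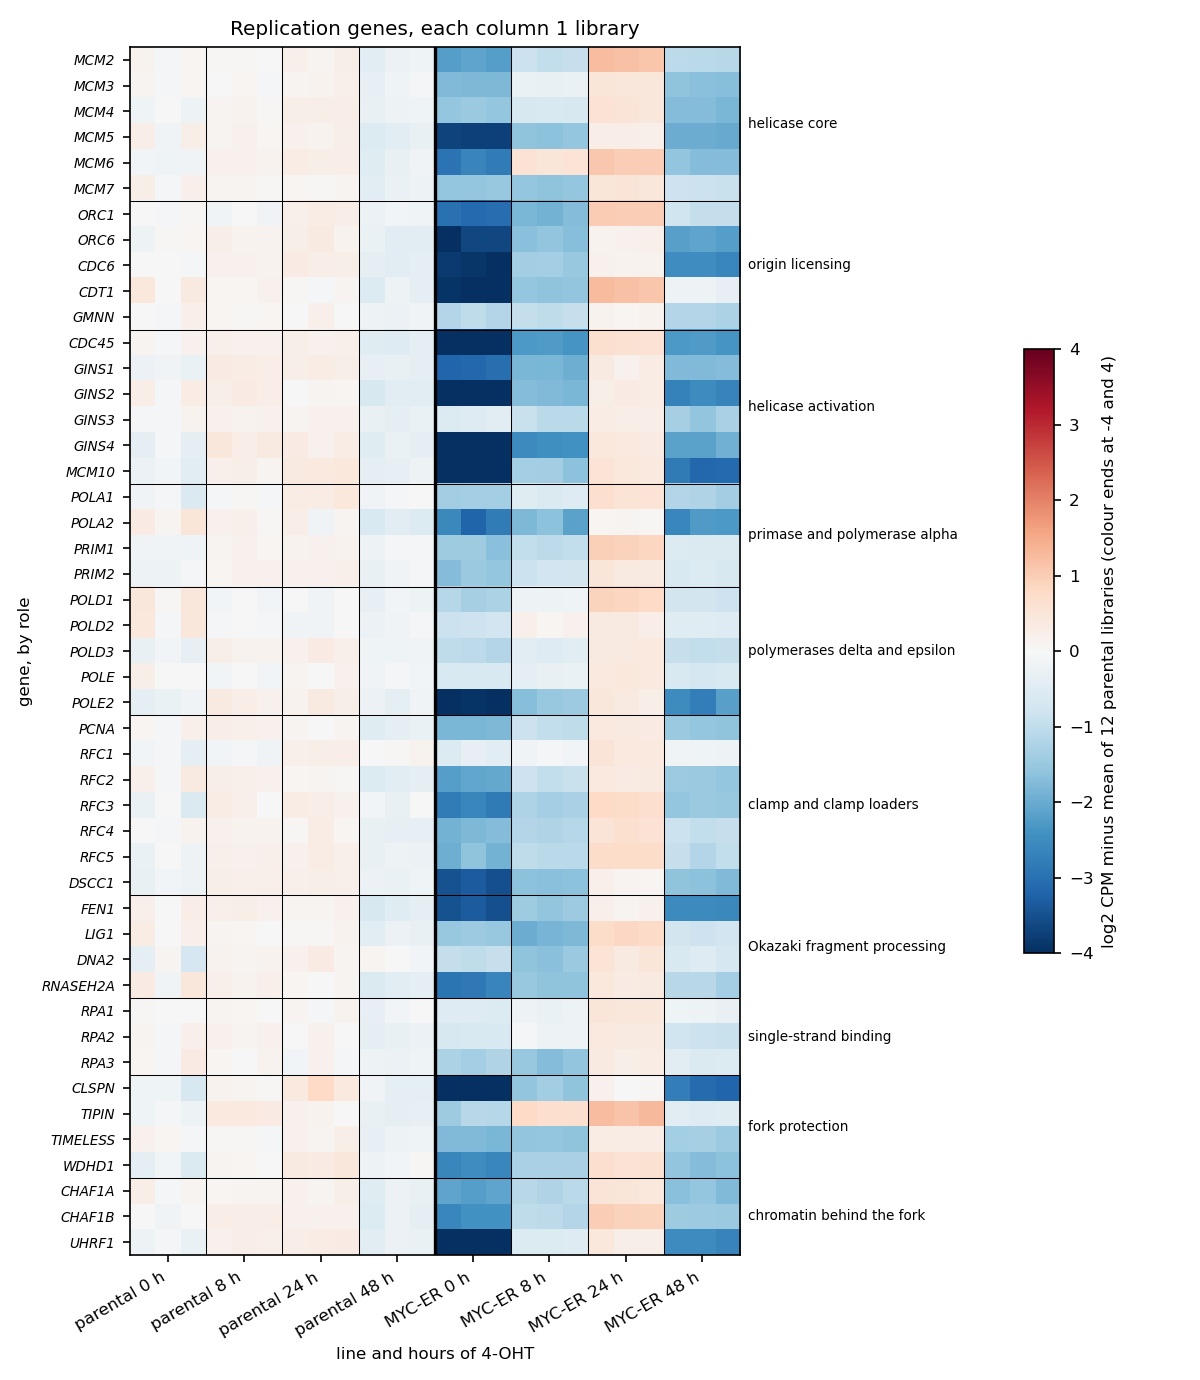
Heat map of the 47 replication genes (rows, by role) in the 24 libraries (columns, by line and hours of 4-OHT). Colour gives log2 CPM minus the gene's mean over the 12 parental libraries, and the colour scale ends at -4 and 4. The 3 MYC-ER libraries at 0 h are blue for nearly every gene, and those at 24 h are at or slightly above the parental colour.

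Before 4-OHT the MYC-ER cells held less RNA of all 47 genes than the parental cells, while 32.7% of all tested genes were called lower and 31.6% higher. The median difference was -2.22 on the log2 scale, and 40 genes were at least 2-fold lower and 12 at least 10-fold, against 15.0% and 3.70% of all genes. The gap ran from -0.26 ± 0.07 for RFC1 to -7.03 ± 0.10 for CDC45. At 8 h, 42 genes were lower and 2 higher than in parental cells, against 25.5% and 23.1% of all genes. The 2 higher genes were MCM6, at 0.36 ± 0.07, and TIPIN, a fork protection factor, at 0.34 ± 0.07.

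At 24 h the lines were close for these genes. Then 45 of the 47 lay within 2-fold of the parental level and 38 within 1.5-fold, against 7 and 3 at 0 h. The share of all tested genes within these limits was not computed, so the closeness cannot be called particular to the 47. By the test, 29 were higher and 2 lower, against 23.5% and 25.8% of all genes. CDT1 had the largest excess, 1.16 ± 0.10, and TIPIN followed with 1.13 ± 0.08. The lower genes were CLSPN, at -0.45 ± 0.12, and CDC6, at -0.13 ± 0.05 with an adjusted p of 0.039. The call for CDC6 was lost in several alternatives, which left 1 lower gene, among them without any 1 of the 3 MYC-ER 24 h libraries, parental 8 h replicate 1 or parental 24 h replicate 1 or 2 (-0.14 to -0.11). With library size alone 60.7% of all calls at 24 h were higher, against 47.6% in the main scaling, and 38 of the replication genes were higher. At 48 h the gap had reopened, with 44 genes lower than in parental cells, while 29.4% of all genes were called lower and 27.3% higher. The other 3, CDT1, RPA1 and TIPIN, were not called. Upper-quartile scaling gave 59.7% of calls higher there, against 48.2%, with 1 replication gene higher and 42 lower. The median difference was 0.28 at 24 h and -1.09 at 48 h, against 0.02 at both times for all genes, and 26 genes were below parental at 0 h, above it at 24 h and below it again at 48 h, against 3.21% of all genes.

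**Figure D2:**
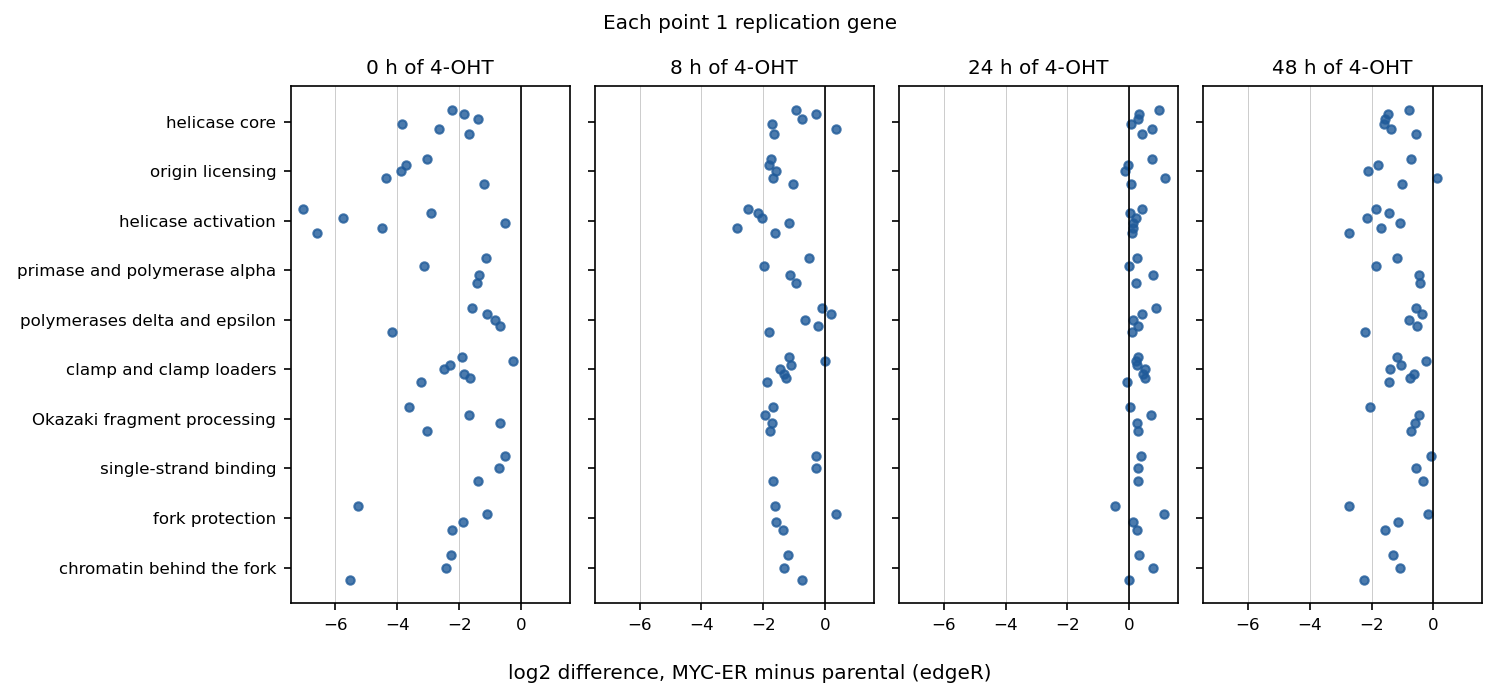
Difference between MYC-ER and parental cells (x axis, log2, edgeR) for each replication gene (1 point), by role (y axis) and hours of 4-OHT (panels). The spread runs from -7.03 to -0.26 at 0 h, narrows to -0.45 to 1.16 at 24 h, and widens to -2.73 to 0.13 at 48 h.

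The sequences just before the start sites were searched for short motifs, because genes of this pathway moved together. Promoters of 39 of the 47 genes were matched by symbol in a RefSeq table for GRCh38.p14, as windows of 300 bases that run from 250 before the start to 50 after it. RPA2, MCM5, DSCC1, DNA2, POLD3, GINS4, MCM4 and RPA3 were not matched. The E2F motif was searched as TTTCCCGC, TTTGGCGC, TTTGCCGC or TTTCGCGC on both strands, and 2 such matches can overlap. It was found for 20 of the 39 genes, which is 51.3%, against 6.23% of all tested genes with a promoter in the table. Counted by window, it was in 42.0% of the windows of these genes and in 4.65% of the windows of all tested genes. Over all 35116 promoter windows it was in 3.31%. The E-box CACGTG, which MYC with its partner MAX is known to bind, was found for 17.9% of the 39 genes and 11.8% of tested genes. The CCAAT box was found for 64.1% and 42.2%. CHR motifs, TTTGAA or TTCGAA, known from promoters of late cell cycle genes, were found for 2.56% and 16.0%. A CCAAT box can share a base with an E2F match, as it does before MCM7. A match is a description of these letters, not a site or a cause.

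MCM6 had 4 E2F matches, as 2 overlapping pairs, and is shown first over 114 bases that touch no annotated exon, from base -172 to base -59 before its start. The capitals mark the matches, and the strand is that of the gene, 5′ to 3′.
MCM6 (chr2:135876502-135876615, minus strand): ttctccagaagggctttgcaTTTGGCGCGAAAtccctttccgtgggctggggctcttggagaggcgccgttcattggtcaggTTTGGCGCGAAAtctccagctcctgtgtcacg
The next lines show 28 bases around the match nearest the start in genes described below, with the match in capitals. The first 3 rose early in MYC-ER cells.
UHRF1 (chr19:4909477-4909504, plus strand): ccgagttttcGCGGGAAAaaaatcagag
TIPIN (chr15:66356730-66356757, minus strand): cacggaTTTGGCGCCAAAcgctgcgggc
CLSPN (chr1:35769966-35769993, minus strand): ctctggctggGCGGGAAAgcaagaacag
The next 3 did not rise or were lower at 8 h, and rose by 24 h.
MCM7 (chr7:100101389-100101416, minus strand): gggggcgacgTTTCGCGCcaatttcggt
LIG1 (chr19:48170441-48170468, minus strand): cttcacccctTTTCCCGCcctcctccca
GINS3 (chr16:58392456-58392483, plus strand): gtccccgggcGCGGGAAAcgagtttcaa
The last 4 are the licensing factor CDT1 and its inhibitor GMNN, and the small and large subunits of polymerase epsilon, which differed in the size of their rise.
CDT1 (chr16:88803744-88803771, plus strand): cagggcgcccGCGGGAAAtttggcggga
GMNN (chr6:24775323-24775350, plus strand): ctgggtcggtTTTGGCGCgctctcactt
POLE2 (chr14:49688202-49688229, minus strand): tgcggcggtgGCGCCAAAtcgcaaatat
POLE (chr12:132687343-132687370, minus strand): gggtgggagcGCGCCAAAtttctcccct
A match was thus present in early and late risers, and in genes with large and small changes. The 20 genes with a match had a median 24 h change of 3.13, and the 19 without one had 2.55. Their ranges, 0.78 to 6.01 and 0.87 to 7.58, overlapped almost fully.

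The 6 subunits of the helicase ring all rose by 24 h, by 2.02 to 3.97 on the log2 scale, but not in step. Identifiers below are those of the count table, with gene positions on GRCh38 from GENCODE 29. MCM5 (ENSG00000100297.16, chr22:35400063-35425430, plus strand) had the largest rise. In MYC-ER cells it stood at 6.02, 5.93 and 5.87 CPM at 0 h, then 25.6, 25.3 and 26.9 after 8 h, 94.2, 94.8 and 90.4 after 24 h and 19.7, 19.7 and 19.4 after 48 h, against 53.8 to 93.4 CPM over the 12 parental libraries. No MYC-ER library at 0, 8 or 48 h reached the lowest parental value, and the 24 h libraries lay near or above the highest. MCM5 rose by 3.97 ± 0.09 at 24 h (adjusted p = 9.1e-20).

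MCM7 (ENSG00000166508.17, chr7:100092728-100101940, minus strand) had the smallest 24 h rise in the ring. It stood at 56.4, 56.4 and 56.9 CPM at 0 h, then 56.8, 54.2 and 55.7 after 8 h, 231, 234 and 224 after 24 h and 92.3, 91.01 and 89.5 after 48 h. The 0 and 8 h libraries overlapped, and the rise came after 8 h. In parental cells MCM7 held 192, 158 and 189 CPM at 0 h, then 176, 176 and 169 after 8 h, 175, 169 and 178 after 24 h and 123, 137 and 144 after 48 h. Its MYC-ER change was -0.02 ± 0.06 by 8 h and 2.02 ± 0.06 by 24 h (adjusted p of 0.74 and 2.7e-17). With library size alone the 8 h change was -0.11 and with upper-quartile scaling -0.16, both then called lower.

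MCM6 (ENSG00000076003.5, chr2:135839626-135876426, minus strand), in the same ring, was named for its timing after its values were seen. It stood at 10.5, 13.01 and 11.7 CPM at 0 h, then 121, 114 and 118 after 8 h, 171, 160.4 and 160.3 after 24 h and 27, 24.5 and 24.5 after 48 h. All 3 libraries at 8 h were above every parental library. Parental cells held 75.2, 72.6 and 74.3 CPM at 0 h, then 92.2, 92.2 and 89.5 after 8 h, 99.4, 95.5 and 98.5 after 24 h and 58.2, 65.7 and 74.1 after 48 h. MCM6 rose by 3.33 ± 0.08 at 8 h and by 3.81 ± 0.08 at 24 h, so that 87.4% of its 24 h change on the log2 scale was present at 8 h. The ratio of MCM6 to MCM7 reads in MYC-ER cells was 0.21 ± 0.02 (SD, n = 3) before 4-OHT and 2.11 ± 0.01, 0.72 ± 0.03 and 0.28 ± 0.01 after 8, 24 and 48 h, and it lay between 0.39 and 0.57 in the 12 parental libraries. Such a ratio within 1 library does not depend on the scaling, and only its change between groups can be read, since the genes differ in length. It was higher at 8 h than at 0 h in every library (exact permutation test, 3 against 3, 2-sided, p = 0.1, the smallest such a design can give). This pair and those below, other than CDT1 with GMNN, were also chosen after their values were seen.

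MCM4 was the subunit that ended below its start. It stood at 56.8, 59.6 and 57.1 CPM at 0 h, then 108, 109 and 107 after 8 h, 247, 239 and 229 after 24 h and 49.7, 49.95 and 46.6 after 48 h. The 48 h libraries lay below all 0 h libraries, by a log2 change of -0.25 ± 0.05 (adjusted p = 0.00051). Scaled by library size alone, that change was -0.09 with an adjusted p of 0.249. MCM2 and MCM3 rose by 3.34 and 2.27 at 24 h. MCM3 was close to its start at 48 h, at 0.14 ± 0.05. That call (adjusted p = 0.041) was lost without any 1 of the 12 MYC-ER libraries, at 0.12 to 0.15, with either of 2 parental libraries left out, and with no filter on low counts (adjusted p = 0.0889). MCM2 shares exon bases with a gene on the other strand, and use of strand in the counting is not stated.

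**Figure D3:**
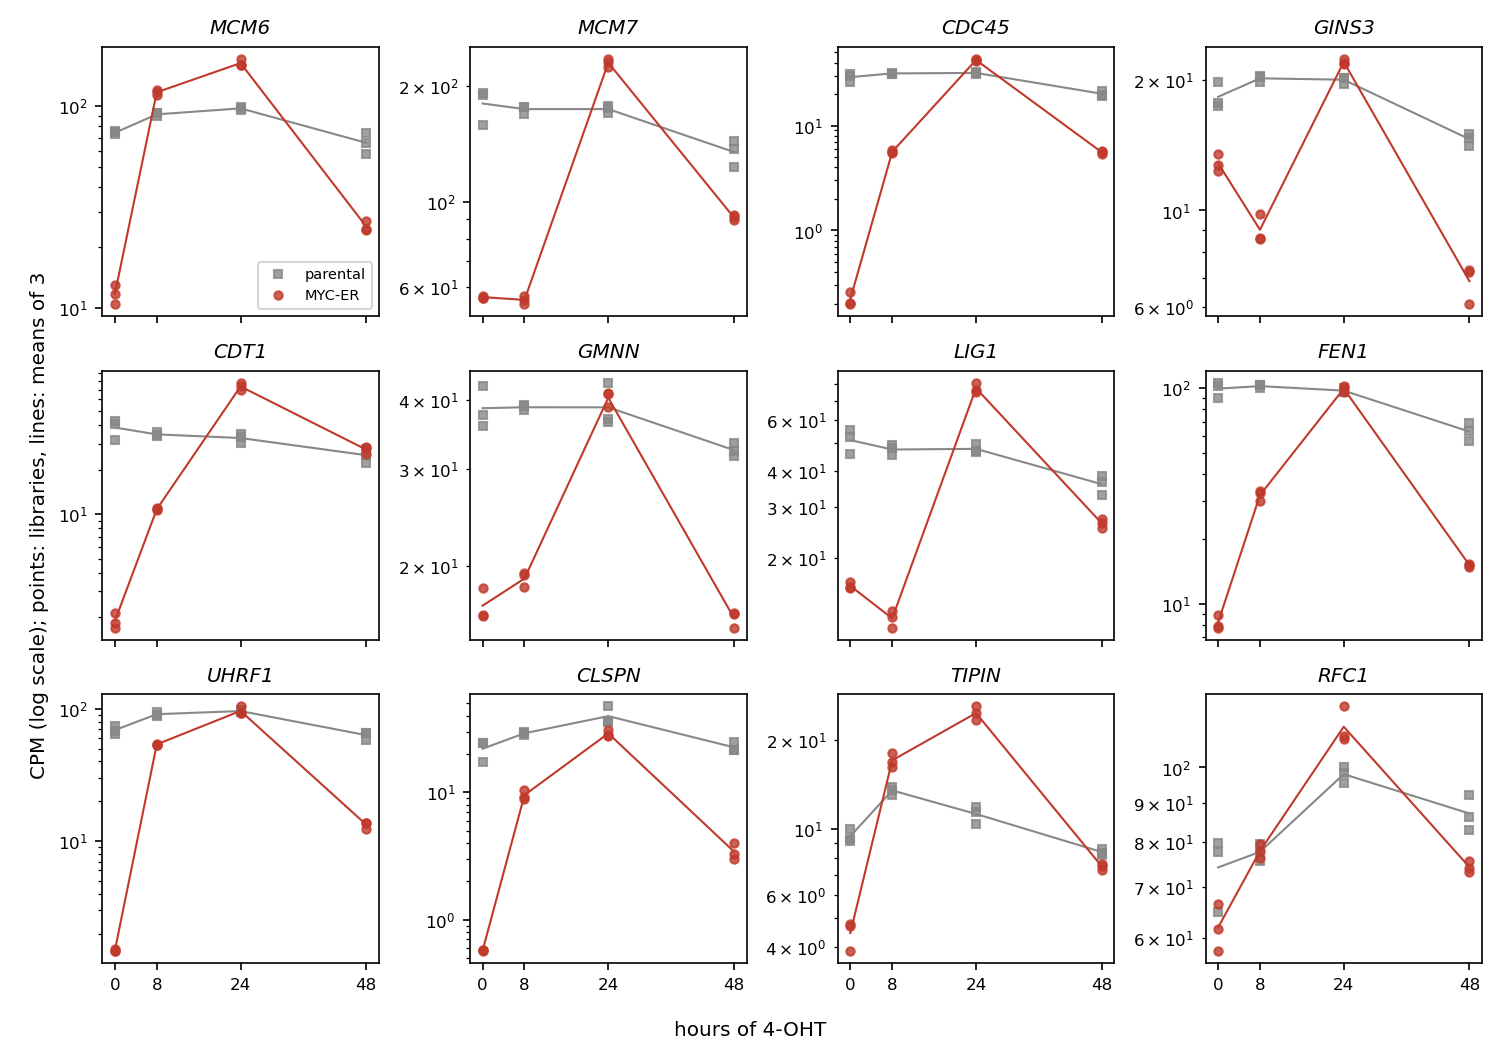
CPM (y axis, log scale) of 12 replication genes against hours of 4-OHT (x axis). Points are libraries, red for MYC-ER and grey for parental, and lines join the means of 3. MCM6 passes the parental level by 8 h, while MCM7, LIG1 and GINS3 are level or lower at 8 h and rise by 24 h.

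The 5 origin licensing genes rose by 1.25 to 5.29 at 24 h, with a median of 4.05. CDT1 (ENSG00000167513.9, chr16:88803213-88809258, plus strand), the loading factor, had the largest rise. It stood at 2.13, 1.701 and 1.82 CPM at 0 h, then 10.9, 10.6 and 10.8 after 8 h, 77.7, 73.5 and 69.1 after 24 h and 28.4, 28.1 and 25.7 after 48 h in MYC-ER cells. The 0 and 8 h libraries lay below and the 24 h libraries above every parental library. Parental cells held 42.9, 32.02 and 41.1 CPM at 0 h, then 33.8, 34.3 and 36.2 after 8 h, 33.4, 30.4 and 34.7 after 24 h and 22.2, 27.9 and 25.3 after 48 h. CDT1 rose by 5.29 ± 0.12 at 24 h (adjusted p = 9.3e-20) and was still 3.86 ± 0.11 above its start at 48 h. Against parental cells at 48 h the difference was 0.13 ± 0.10 (adjusted p = 0.27), and it was the one gene with a value above 0 there. With library size alone this was 0.27 and called higher.

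GMNN (ENSG00000112312.10, chr6:24774931-24786099, plus strand), the inhibitor of CDT1, had the smallest rise of the group. It stood at 16.3, 18.3 and 16.3 CPM at 0 h, then 19.2, 18.3 and 19.4 after 8 h, 41.05, 38.8 and 41.2 after 24 h and 16.5, 16.4 and 15.5 after 48 h. The 0, 8 and 48 h libraries overlapped or nearly touched, and the 24 h libraries stood above them. Parental cells held 37.6, 35.9 and 42.4 CPM at 0 h, then 39.1, 38.3 and 39.01 after 8 h, 36.97, 42.95 and 36.4 after 24 h and 32.2, 31.7 and 33.4 after 48 h. GMNN rose by 1.25 ± 0.07 at 24 h (adjusted p = 3.7e-13). Its 8 h change, 0.16 ± 0.07 (adjusted p = 0.035), lost its call without MYC-ER 0 h replicate 1 or 3 or MYC-ER 8 h replicate 1 or 3, at 0.13 to 0.16. The call was also lost with upper-quartile scaling (0.02), library size alone (0.07) and at least 10 counts in every library (0.13). The same held with the GC trend removed, with or without the replicate block (0.13 each).

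The ratio of CDT1 to GMNN reads shows the pair within each library. In MYC-ER cells it was 0.11 ± 0.02 (SD, n = 3) before 4-OHT and 0.57 ± 0.01, 1.82 ± 0.12 and 1.70 ± 0.03 after 8, 24 and 48 h. In parental cells it was 1.00 ± 0.13, 0.90 ± 0.03, 0.86 ± 0.13 and 0.78 ± 0.10. At 24 and 48 h every MYC-ER library, at 1.66 to 1.89, lay above every parental library, which reached 1.14 at most, and at 0 h every MYC-ER library lay below (exact permutation tests, p = 0.1 each, the smallest possible). The transcripts of CDT1 and GMNN differ in GC content, at 64.9% and 43.6%. With the GC trend removed, the parental CDT1 changes were 0.16 at 8 h and 0.20 at 24 h, in place of -0.15 and -0.24. The part of GC content in the parental ratio was not tested. CDT1 and GMNN proteins are known to be controlled by degradation, which these RNA values do not show.

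ORC1 and ORC6, subunits of the origin recognition complex, and CDC6, which joins it to load the ring, rose by 4.05, 3.94 and 4.07 at 24 h. They differed in when the rise came. On the log2 scale CDC6 had 61.4% of its rise at 8 h and ORC1 30.3%. At 48 h CDC6 differed from parental cells by -2.12 ± 0.05 and ORC1 by -0.73 ± 0.06.

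The genes that turn the loaded ring into a helicase held both ends of the range. CDC45 (ENSG00000093009.10, chr22:19479459-19520612, plus strand), the helicase cofactor, had the largest rise of all 47. It stood at 0.261, 0.204 and 0.199 CPM at 0 h, then 5.64, 5.81 and 5.45 after 8 h, 43.1, 42.6 and 41.4 after 24 h and 5.62, 5.79 and 5.35 after 48 h in MYC-ER cells. The 0 h values rest on 34 to 45 counts per library. Parental cells held 29.9, 26.2 and 31.1 CPM at 0 h, then 31.9, 31.4 and 31.3 after 8 h, 32.5, 31.1 and 32 after 24 h and 19.7, 19.2 and 21.6 after 48 h, so the 24 h libraries were above every parental library and the other MYC-ER libraries below. CDC45 rose by 7.58 ± 0.10 at 24 h, a 191-fold change (adjusted p = 4.6e-23), and by 4.67 ± 0.09 at 8 h. MCM10, which helps start the assembled helicase, also started low, at 0.216 to 0.284 CPM, and rose by 7.33 ± 0.14. It fell by 3.49 between 24 and 48 h, more than any other of the 47.

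GINS3 (ENSG00000181938.13, chr16:58295080-58406144, plus strand), a subunit of the 4-part GINS complex, was lower at 8 and 48 h, when its partners were higher. It stood at 12.3, 12.8 and 13.5 CPM at 0 h, then 9.84, 8.63 and 8.61 after 8 h, 22.3, 21.8 and 21.9 after 24 h and 7.23, 6.08 and 7.301 after 48 h. The 8 h and the 48 h libraries lay below all 0 h libraries, and the 24 h libraries above. In parental cells it held 17.4, 17.7 and 19.8 CPM at 0 h, then 20.3, 19.8 and 20.4 after 8 h, 19.6, 20.2 and 20.2 after 24 h and 14.7, 14.1 and 15.03 after 48 h. Its change was -0.51 ± 0.07 at 8 h and 0.78 ± 0.07 at 24 h (adjusted p of 1.5e-06 and 2.7e-09), then -0.90 ± 0.07 relative to the start at 48 h (adjusted p = 8.6e-10). The other subunits, GINS1, GINS2 and GINS4, rose by 3.39, 5.86 and 5.15 at 24 h and were higher at 8 and 48 h as well. The ratio of GINS2 to GINS3 reads went from 0.039 ± 0.010 (SD, n = 3) at 0 h to 0.77 ± 0.04, 1.31 ± 0.06 and 0.56 ± 0.10, against 1.15 to 1.45 as parental group means. GINS3 and GINS4 share over 10% of their exon bases with a gene on the other strand, so reads of those stretches cannot be assigned with certainty.

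**Figure D4:**
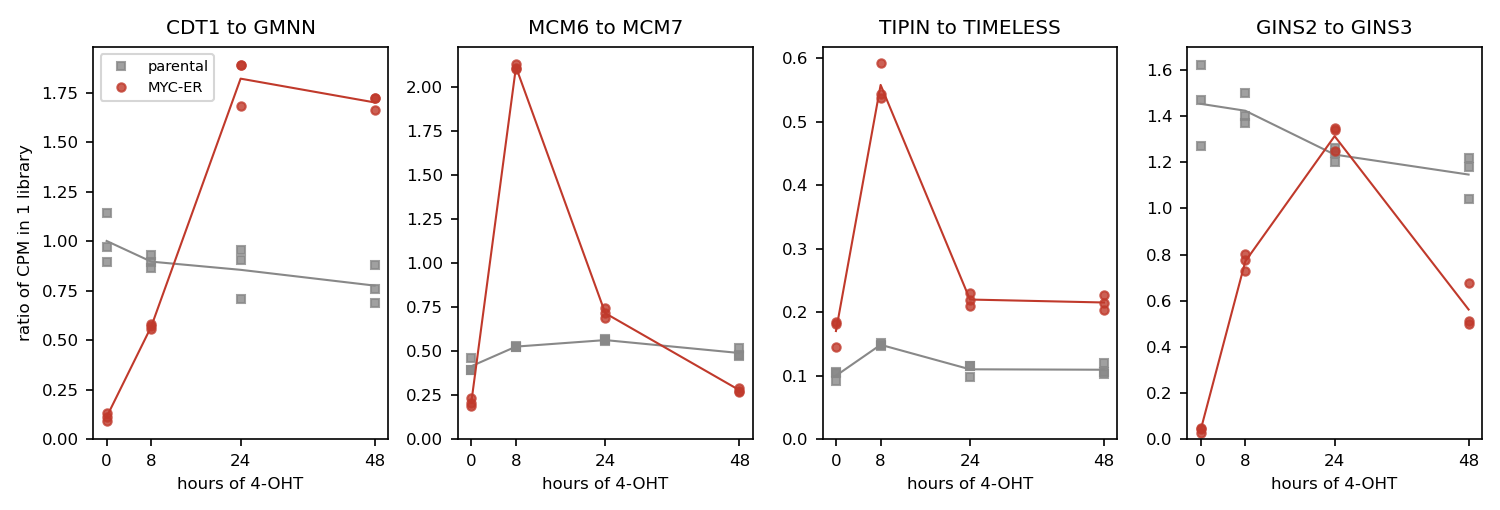
Ratios of CPM between partner genes in each library (y axis, linear from 0) against hours of 4-OHT (x axis), red for MYC-ER, grey for parental, lines through means of 3. MCM6 to MCM7 and TIPIN to TIMELESS peak at 8 h in MYC-ER cells, at 2.11 and 0.56, whereas CDT1 to GMNN is highest at 24 h, at 1.82.

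Polymerase alpha with primase starts every new strand, and its 4 subunits rose by 1.96 to 2.91 at 24 h. POLA2 (ENSG00000014138.9, chr11:65261762-65305589, plus strand), the regulatory B subunit, stood at 4.98, 3.17 and 4.27 CPM at 0 h, then 8.45, 9.54 and 6.65 after 8 h, 30.9, 31.8 and 30.8 after 24 h and 4.83, 6.14 and 5.95 after 48 h in MYC-ER cells. The 24 h libraries stood far above the others. It ranged over 19.4 to 41.3 CPM in parental cells, and the 24 h libraries lay inside that parental range. POLA2 rose by 2.91 ± 0.15 (adjusted p = 2.3e-13). Its 48 h change of 0.45 ± 0.15 was lost without MYC-ER 0 h replicate 2 (0.28), 48 h replicate 2 (0.38) or 48 h replicate 3 (0.40). POLA1 (ENSG00000101868.11, chrX:24693919-24996986, plus strand), the catalytic subunit, had the smallest rise. It stood at 12.2, 12.3 and 12.3 CPM at 0 h, then 22.6, 21.3 and 22.4 after 8 h, 50.4, 46.3 and 46.5 after 24 h and 14.1, 13.9 and 12.2 after 48 h, against 21.3 to 42.3 CPM in parental cells. At 24 h its libraries were above all parental ones. POLA1 rose by 1.96 ± 0.09 (adjusted p = 5.5e-14) and was not called at 48 h, at 0.12 ± 0.09, though it was with library size alone (0.28). The primase subunits PRIM1 and PRIM2 rose by 2.42 and 1.99. POLA2 and PRIM1 share exon bases with genes on the same strand, so part of their counts is uncertain.

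The 5 subunits of the replicative polymerases delta and epsilon rose by 1.00 to 4.79 at 24 h, with a median of 1.45. POLE2 (ENSG00000100479.13, chr14:49643555-49688422, minus strand), the second subunit of polymerase epsilon, which copies the leading strand, stood at 0.29, 0.448 and 0.204 CPM at 0 h, then 2.09, 2.41 and 2.495 after 8 h, 9.31, 8.69 and 8.095 after 24 h and 1.18, 1.01 and 1.502 after 48 h. It was the lowest of the 47 per length at 24 h, at 2.94 CPM per kb of exon. Parental libraries held 5.17 to 8.76 CPM, and the 24 h MYC-ER libraries lay in the upper part of that range or above it. POLE2 rose by 4.79 ± 0.20 (adjusted p = 4.2e-15). POLE (ENSG00000177084.17, chr12:132623753-132687365, minus strand), the catalytic subunit of the same enzyme, stood at 71.8, 71.2 and 71.7 CPM at 0 h, then 84.8, 88.1 and 90.6 after 8 h, 144, 144 and 142 after 24 h and 70.8, 66.5 and 71.1 after 48 h. The 0 and 48 h libraries nearly coincided. Parental cells held 98.9 to 128 CPM, below all 3 MYC-ER libraries at 24 h. POLE rose by 1.00 ± 0.06 at 24 h (adjusted p = 1.3e-12) and by 0.30 ± 0.06 at 8 h, and its 48 h change was -0.04 ± 0.06 (adjusted p = 0.59).

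Polymerase delta makes the lagging strand. POLD1, its catalytic subunit, POLD2 and POLD3 rose by 2.1, 1.14 and 1.45 at 24 h. POLD2 rose early, with 84.7% of its log2 change at 8 h. It was the one gene not called between 8 and 24 h, at 0.18 ± 0.08 (adjusted p = 0.078), though it was called higher in 8 alternatives, without parental 0 h replicate 2 (0.17) or 3 (0.18) among them. At 48 h POLD3 stood at 0.12 ± 0.06 from its start and was not called. It was called higher with library size alone (0.28), with upper-quartile scaling (0.16) and without parental 0 h replicate 2 (0.12). The call also appeared with at least 10 counts in every library (0.15) and with the GC trend removed, with or without the replicate block (0.19 each).

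PCNA, the sliding clamp, and the clamp loaders rose by 0.87 to 3.58 at 24 h. DSCC1, part of an alternative loader used for sister chromatid cohesion, had the largest rise. It stood at 1.71, 1.87 and 1.65 CPM at 0 h, then 6.02, 6.002 and 6.08 after 8 h, 21.98, 20.6 and 20 after 24 h and 6.27, 6.08 and 5.58 after 48 h, against 15.4 to 22.4 CPM in parental cells. The 24 h libraries fell inside the parental range, and all others were below it. DSCC1 rose by 3.58 ± 0.07 (adjusted p = 8.8e-21). RFC1 (ENSG00000035928.16, chr4:39287456-39366375, minus strand), the large subunit of the main loader, moved least. It stood at 57.7, 66.4 and 61.6 CPM at 0 h, then 76.2, 79.5 and 77.8 after 8 h, 120.1, 109 and 109.9 after 24 h and 75.6, 73.9 and 73.1 after 48 h, against 64.95 to 100.2 CPM in parental cells. Its libraries at 0 h overlapped the parental range in 1 replicate. RFC1 rose by 0.87 ± 0.07 (adjusted p = 1.3e-10). The small loader subunits RFC2, RFC3, RFC4 and RFC5 rose by 2.45, 3.48, 2.38 and 2.55, more than RFC1, and the ratio of RFC3 to RFC1 reads went from 0.055 at 0 h to 0.34 at 24 h. PCNA rose by 2.19 ± 0.06 and held the highest level per length of the 47 at 24 h, 120.0 CPM per kb. Processed copies of PCNA, RFC3 and RFC5 exist in the genome, so their counts may be shared with those copies.

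Lagging strand pieces are trimmed and joined by FEN1, DNA2, RNase H2 and LIG1, and these 4 split at 8 h. FEN1 (ENSG00000168496.4, chr11:61792637-61797244, plus strand), the flap nuclease, stood at 7.89, 8.89 and 7.74 CPM at 0 h, then 33.3, 29.8 and 32.5 after 8 h, 102, 96.5 and 99.8 after 24 h and 15.3, 15.2 and 14.8 after 48 h, against 56.96 to 106 CPM in parental cells. Its libraries rose at each step to 24 h without overlap. FEN1 rose by 1.96 ± 0.07 at 8 h and 3.61 ± 0.08 at 24 h (adjusted p = 3.2e-20). RNASEH2A, the catalytic subunit of RNase H2, rose by 1.22 and 3.17.

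LIG1 (ENSG00000105486.14, chr19:48115445-48170603, minus strand), the ligase that seals the pieces, went down first. It stood at 15.8, 16.5 and 15.9 CPM at 0 h, then 11.5, 12.5 and 13.1 after 8 h, 75.3, 80.98 and 76.4 after 24 h and 27.4, 25.5 and 26.4 after 48 h. Every 8 h library was below every 0 h library. Parental cells held 55.6, 45.9 and 52.4 CPM at 0 h, then 49.2, 48.1 and 45.5 after 8 h, 47.02, 46.7 and 49.8 after 24 h and 33.02, 38.5 and 36.8 after 48 h. LIG1 changed by -0.37 ± 0.07 by 8 h and 2.27 ± 0.07 by 24 h (adjusted p of 5.5e-05 and 2.7e-17), where it exceeded parental cells by 0.70 ± 0.07. DNA2 (ENSG00000138346.15, chr10:68414064-68472121, minus strand), a nuclease and helicase for long flaps, stood at 8.36, 7.98 and 8.47 CPM at 0 h, then 5.27, 5.09 and 5.75 after 8 h, 23.6, 20.8 and 22.5 after 24 h and 10.6, 11.2 and 10.1 after 48 h, and its 8 h libraries were also below all 0 h libraries. Parental cells held 10.1 to 20.1 CPM. DNA2 changed by -0.62 ± 0.13 by 8 h and 1.43 ± 0.13 by 24 h (adjusted p of 0.00019 and 1.9e-09). Its 48 h change of 0.36 ± 0.13 (adjusted p = 0.023) was lost without MYC-ER 0 h replicate 1 (0.37) or 2 (0.34) or 48 h replicate 1 (0.36) or 2 (0.32). FEN1 has processed copies in the genome, and RNASEH2A shares exon bases with a gene on the same strand.

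Replication protein A, which coats single-stranded DNA, has 3 subunits, and they had the smallest median change of any group, 0.99 at 24 h. RPA3 (ENSG00000106399.11, chr7:7636518-7718607, minus strand), the small subunit, stood at 8.69, 8.12 and 8.93 CPM at 0 h, then 7.297, 6.24 and 6.96 after 8 h, 26.9, 24.2 and 25.4 after 24 h and 15.2, 13.9 and 14.2 after 48 h, against 17.5 to 26.2 CPM in parental cells. Its 8 h libraries were below all 0 h libraries. RPA3 changed by -0.33 ± 0.09 by 8 h and 1.57 ± 0.09 by 24 h (adjusted p of 0.0029 and 1.3e-12). RPA2 (ENSG00000117748.10, chr1:27891524-27914746, minus strand), the middle subunit, stood at 30.3, 30.8 and 30.9 CPM at 0 h, then 45.5, 40.9 and 41.1 after 8 h, 61.7, 59.95 and 60.1 after 24 h and 27.1, 25.9 and 25.3 after 48 h, against 36.7 to 54.4 CPM. It was higher at 8 h, where RPA3 was lower, and its 48 h libraries were below all 0 h libraries. RPA2 changed by 0.98 ± 0.06 by 24 h and -0.23 ± 0.06 by 48 h (adjusted p of 9e-12 and 0.0051), the latter -0.07 and not called with library size alone. RPA1, the large subunit, rose by 0.99 ± 0.06. RPA2 has processed copies in the genome.

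Fork protection genes rose by 2.09 to 5.66. CLSPN (ENSG00000092853.14, chr1:35720218-35769967, minus strand), or claspin, which carries the checkpoint signal at stalled forks, stood at 0.574, 0.578 and 0.566 CPM at 0 h, then 9.21, 10.5 and 8.905 after 8 h, 31.1, 27.9 and 28.1 after 24 h and 4.01, 3.26 and 3.02 after 48 h. Parental cells held 24.4, 24.2 and 17.4 CPM at 0 h, then 29.9, 29.4 and 28.04 after 8 h, 35.7, 47.3 and 36.04 after 24 h and 24.7, 21.6 and 21.5 after 48 h. The 24 h MYC-ER libraries lay below all 3 parental 24 h libraries. CLSPN rose by 5.66 ± 0.16 (adjusted p = 5e-18) and, at 48 h, differed from parental cells by -2.72 ± 0.13. TIMELESS (ENSG00000111602.12, chr12:56416373-56449403, minus strand), which couples the helicase to the polymerases, stood at 26.7, 26.5 and 25.4 CPM at 0 h, then 30.5, 31.3 and 29.8 after 8 h, 113, 111 and 112 after 24 h and 35.6, 35.8 and 33.2 after 48 h, against 71.6 to 106 CPM. It rose mostly after 8 h. TIMELESS changed by 0.22 ± 0.06 at 8 h (adjusted p = 0.0015), not called with library size alone (0.13) or upper-quartile scaling (0.08), and by 2.09 ± 0.06 at 24 h (adjusted p = 3.6e-18).

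TIPIN (ENSG00000075131.10, chr15:66336206-66386746, minus strand), the direct partner of TIMELESS, rose earlier. It stood at 3.88, 4.81 and 4.71 CPM at 0 h, then 18.1, 16.8 and 16.2 after 8 h, 24.6, 23.3 and 25.9 after 24 h and 7.65, 7.299 and 7.54 after 48 h, against 9.27, 10.02 and 9.12 CPM at 0 h, then 13.9, 13.6 and 13.1 after 8 h, 11.9, 11.4 and 10.4 after 24 h and 8.595, 8.21 and 8.32 after 48 h in parental cells. All MYC-ER libraries at 8 and 24 h lay above every parental library. TIPIN rose by 1.93 ± 0.08 at 8 h and 2.46 ± 0.08 at 24 h. The ratio of TIPIN to TIMELESS reads in MYC-ER cells was 0.17 ± 0.02 (SD, n = 3) before 4-OHT and 0.56 ± 0.03, 0.22 ± 0.01 and 0.22 ± 0.01 after 8, 24 and 48 h, and it was 0.100 to 0.15 as parental group means. It was thus above the parental ratio at every time, and highest at 8 h. TIPIN shares exon bases with a gene on the same strand. WDHD1, which ties polymerase alpha to the helicase, rose by 3.19 ± 0.09 at 24 h.

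Chromatin is rebuilt behind the fork. UHRF1 (ENSG00000276043.5, chr19:4903080-4962154, plus strand), which brings the maintenance DNA methyltransferase to newly copied DNA, stood at 1.48, 1.47 and 1.52 CPM at 0 h, then 53.6, 53.2 and 54.7 after 8 h, 104, 92.4 and 92.5 after 24 h and 13.8, 13.8 and 12.4 after 48 h. Parental cells held 68.1, 74.05 and 64.97 CPM at 0 h, then 88.5, 94.6 and 90.1 after 8 h, 94.7, 96.2 and 97.6 after 24 h and 58.2, 66.1 and 65.3 after 48 h. At 24 h the 2 lines overlapped, and at 0 h no MYC-ER library came near the parental values. UHRF1 rose by 5.17 ± 0.07 at 8 h and 6.01 ± 0.08 at 24 h (adjusted p = 4.6e-23), so that 86.0% of the rise on the log2 scale was present at 8 h. CHAF1A (ENSG00000167670.16, chr19:4402662-4445018, plus strand), the large subunit of the histone chaperone CAF-1, stood at 10.03, 9.42 and 10.02 CPM at 0 h, then 20.3, 18.97 and 20.4 after 8 h, 62.5, 60.4 and 58.7 after 24 h and 13.8, 14.8 and 12.9 after 48 h, against 30.8 to 52.5 CPM in parental cells. It climbed at each step to 24 h without overlap. CHAF1A rose by 2.62 ± 0.08 (adjusted p = 1.5e-17), and CHAF1B, the middle subunit, by 3.4.

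Timing differed widely within some roles. The 8 h change was a median of 41.8% of the 24 h change on the log2 scale, and 16 of the 47 genes had at least 50%. MCM6, UHRF1, POLD2, TIPIN and MCM10 led, with 87.4%, 86.0%, 84.7%, 78.5% and 73.9%. GINS3, DNA2, RPA3, LIG1 and MCM7 came last, with values of -65.9% to -1.2%. Group medians ran from 11% for the lagging strand genes to 55.7% for fork protection, while the range inside the helicase ring alone was -1.2% to 87.4%. These shares are descriptions, with no test.

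**Figure D5:**
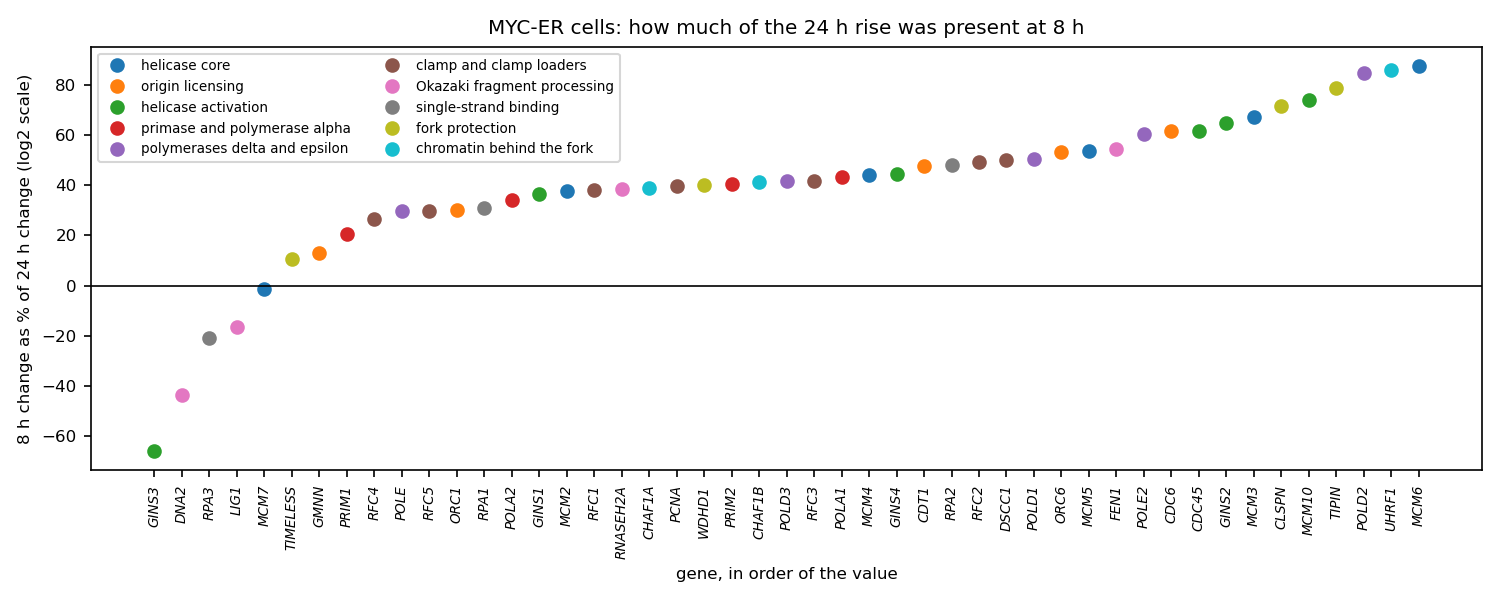
The 8 h change of each replication gene as a percent of its 24 h change in MYC-ER cells (y axis, log2 scale), with genes in order of the value (x axis) and coloured by role. The values run from -65.9% for GINS3 to 87.4% for MCM6, and colours of 1 role are spread along the axis.

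In parental cells 4-OHT moved the replication genes little, by at most 0.85 on the log2 scale in either direction. At 8 h 19 were higher and 3 lower, against 15.0% and 16.0% of all genes, and at 24 h 23 were higher and 2 lower, against 21.2% and 21.7%. At 48 h 2 were higher and 27 lower, against 20.4% and 20.1%. The median changes were 0.13, 0.14 and -0.25, against 0.00, -0.03 and 0.00 for all genes. The largest parental rise was 0.85 ± 0.12 for CLSPN at 24 h, and the largest fall was -0.85 ± 0.14 for POLA2 at 48 h. GINS4 rose by 0.62 ± 0.08 at 8 h. The genes lower at 8 h were POLD1, POLD2 and POLE, and those lower at 24 h were POLD1 and POLD2, by 0.36 and 0.39. Upper-quartile scaling gave 4 lower genes at 24 h. WDHD1 and RFC1 were the 2 called higher at 48 h.

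These parental counts were not stable. With only the compared groups in the fit, 9 genes were higher and 0 lower at 8 h, 0 were lower at 24 h, and 0 were higher and 16 lower at 48 h. Without parental 0 h replicate 2, 6 were lower at 8 h, 7 lower at 24 h and 6 higher at 48 h, and without parental 48 h replicate 3, 1 was higher at 48 h. Shares of all tested genes under these settings are not given here, so the shifts cannot be called particular to the 47. The parental changes also ran with the GC content of the transcripts, which spans 37.6% to 65.0% among the 47. For the 8, 24 and 48 h changes Spearman's rho across the 47 genes was -0.77, -0.70 and -0.75, against 0.07 and 0.09 for the MYC-ER changes at 8 and 24 h. Genes are not independent replicates, the points of each rho share the same libraries, and the part of GC content was not tested. With the GC trend removed no gene was lower at 8 or 24 h, and none was higher at 48 h.

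The change in MYC-ER cells exceeded the parental change, tested as the line by time interaction, in 40, 47 and 38 genes at 8, 24 and 48 h, against 27.3%, 27.7% and 23.6% of all genes. It was lower in 3 genes at 8 h and 1 at 48 h, against 27.8% and 21.4% of all genes, and in none of the 47 at 24 h, against 26.8%. With library size alone 63.5% of all interaction calls at 48 h were higher, against 52.5% in the main scaling, and 41 of the replication genes were. The median differences were 1.10, 2.47 and 1.10, against -0.08, 0.02 and 0.07 for all genes. The 3 at 8 h were DNA2 (-1.03 ± 0.18), GINS3 (-0.65 ± 0.10) and LIG1 (-0.27 ± 0.10), of which the LIG1 call was lost with only the compared groups in the fit (-0.25) and without MYC-ER 0 h replicate 2 (-0.24), MYC-ER 8 h replicate 1 (-0.21) or parental 0 h replicate 2 (-0.19). GINS3 was the 1 at 48 h, at -0.58 ± 0.10, and without parental 0 h replicate 2 there were 2. Some genes were called in opposite directions in the lines, with the interaction also called. At 8 h POLD1, POLD2 and POLE, 3 genes, were higher in MYC-ER and lower in parental cells, against 3.80% of all genes, and DNA2 alone was the reverse, against 2.61%. POLD1 and POLD2 were the 2 such genes at 24 h, against 6.22%. At 48 h 23 genes were higher in MYC-ER and lower in parental cells, against 4.95%, and they included CDC45, CDT1, CDC6 and PCNA. With only the compared groups in the fit, or with the GC trend removed, no gene was lower in parental cells at 8 or 24 h, so the opposite calls of POLD1, POLD2 and POLE were then lost. At 48 h, with only the compared groups, 16 genes were lower in parental cells in place of 27. Not all 23 opposite calls at 48 h were then kept. All MYC-ER comparisons with 0 h share the same 3 control libraries, and the lines are compared in the same libraries at each time, so these counts are not independent of each other.

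Other genes of the pathway, from lists chosen by function, moved less evenly. At 24 h against 0 h, 30.4% of all tested genes were called higher and 31.2% lower in MYC-ER cells, and with few genes in a list its counts are only a description. Of 16 further licensing and firing genes, 13 were higher and 0 lower in MYC-ER cells at 24 h, with a median of 1.11. TICRR, which brings CDC45 to origins, rose by 4.88 ± 0.10, and the helicase RECQL4 by 3.78 ± 0.09. Of 6 genes that act on CDT1 or origins through protein degradation, 3 were higher and 1 lower. DTL, the ligase adaptor that marks CDT1 for destruction, rose by 6.84 ± 0.10 and FBXO5 by 2.43 ± 0.09, while the general adaptor DDB1 fell by 0.34. Of 17 further fork, clamp and chromatin genes, 13 were higher and 1 lower. The histone chaperone ASF1B rose by 6.80 ± 0.11 and topoisomerase TOP2A by 6.37 ± 0.13, and the small polymerase delta subunit POLD4 fell by 0.37.

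Of 10 checkpoint genes, 7 were higher and 3 lower at 24 h. The phosphatase CDC25A rose by 3.10 ± 0.07 and the kinase CHEK1 by 1.47 ± 0.07. ETAA1, an activator of the ATR kinase, fell by 0.42 and RAD17, a checkpoint clamp loader, by 0.23. Of 13 repair and translesion polymerases, 3 were higher and 5 lower, with a median of -0.10, counts close to the 30.4% and 31.2% of all tested genes. POLQ, which joins broken ends, rose by 6.26 ± 0.17 and PRIMPOL, which primes past stalled forks, by 0.58 ± 0.07, while POLI and POLN fell by 0.83 and 0.78.

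Of 13 E2F and RB family genes, 10 were higher and 2 lower at 24 h. E2F2, an activator, rose by 6.92 ± 0.16 and E2F8, a repressor, by 5.48 ± 0.24. RBL2, an RB family member found in resting cells, fell by 0.51 and TFDP2, a partner of E2F proteins, by 0.59. Among 11 genes that mark cell cycle phases, 8 were higher and 3 lower, with a median of 3.90. MKI67, the proliferation marker, rose by 7.74 ± 0.10 and the mitotic cyclin CCNB1 by 5.04 ± 0.08. The cyclin-dependent kinase inhibitors CDKN1C and CDKN1A fell by 2.08 and 0.35. The proliferation marker moved with the replication genes over time, at group means of 1.74, 6.13, 372 and 97.6 CPM for MKI67 in MYC-ER cells at 0, 8, 24 and 48 h and 209 to 318 CPM in parental cells. Its part in their change was not tested. At 8 h MKI67 was 1.81 ± 0.09 above its start, TOP2A 0.15 ± 0.11 (adjusted p = 0.25) and UHRF1 5.17 ± 0.07. UHRF1 had one of the largest 8 h changes of the 47. Their median was 1.21, below the change of MKI67, and their range was -0.62 to 5.42.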

How the data were processed

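The deposited table holds gene counts for 24 libraries, which were treated here as raw counts. Per the labels, the libraries were of polyA RNA from a stranded kit, sequenced as pairs of 150 bases. The submitters' processing notes name Trimmomatic 0.39, STAR, StringTie 2.1.3b and GRCh38. The annotation, the tool that gave the counts, and whether counting used strand, are not given in the sources used here. Each group of 3 libraries was taken from the labels. Counts were filtered with filterByExpr, scaled by TMM and fitted with edgeR 4.0.16 in R 4.3.3 (quasi-likelihood F test, 1 mean for each of 8 groups, all libraries, 2-sided, Benjamini-Hochberg over 22158 genes, threshold 0.05). For the interaction, the parental change was subtracted from that of MYC-ER cells. CPM use TMM-scaled library sizes, and levels per length divide by kb of GENCODE exon. Exact permutation tests were used for ratios. The script was tested on simulated data. The alternatives were other scalings and filters, DESeq2 1.42.0, only the compared groups, a replicate block, GC correction (lowess, span 0.3) and leaving out each library.

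The genes, their role groups, the other lists and the tests were chosen with earlier results of these data known. In each role group, values of every MYC-ER library were given for the genes with the largest and smallest 24 h change, and for genes whose direction differed from most of the group. In each other list, up to 2 called genes were named in each direction at 24 h, those that moved most. TOP2A is also among the phase markers, and its 24 h rise was given only with the fork, clamp and chromatin genes. One further marker list is not reported here. Endothelial markers summed to at most 2.32 CPM, adipocyte markers to at most 1.71 CPM and epithelial markers to 348.0 to 859.0 CPM. Replicate libraries of a group differed by more than counting noise (chi-square per degree of freedom of 8.96 or more). Intervals of the counts are not given, since replicate spread exceeds counting error.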

Additional observations from a re-analysis of the deposited data

Results flagged for a closer look

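The response of the replication genes to 4-OHT differed between the lines by the test of the interaction (edgeR, Benjamini-Hochberg over all tested genes). The difference was higher in MYC-ER cells for 40 genes and lower for 3 at 8 h, against 27.3% and 27.8% of all tested genes. It was higher for 47 at 24 h, against 27.7%, and higher for 38 and lower for 1 at 48 h, against 23.6% and 21.4%. Some genes were called in opposite directions in the 2 lines, with the interaction also called. At 8 h 3 genes, POLD1, POLD2 and POLE, were higher in MYC-ER and lower in parental cells, against 3.80% of all genes, and 1 gene, DNA2, the opposite, against 2.61%. At 24 h 2 genes, POLD1 and POLD2, were higher in MYC-ER and lower in parental cells, a smaller share than the 6.22% of all genes. At 48 h 23 genes were higher in MYC-ER and lower in parental cells, among them CDC45, CDT1, CDC6 and PCNA, against 4.95% of all genes. With only the compared groups in the fit, or with the GC trend removed, 0 genes were called lower in parental cells at 8 and at 24 h, so the opposite calls of POLD1, POLD2 and POLE were lost, and POLD1 at 24 h stood at 0.0782 with the GC trend removed. At 48 h 16 genes were called lower in parental cells with only the compared groups, so not all 23 opposite calls were kept.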

How the results depend on the processing

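Of 23970 member values recomputed under the alternatives, 23540 kept their direction and their side of the threshold, 204 lost the call, 201 gained it and 25 changed direction. A value near 0 that was not called in either setting was not counted as changing direction. All 25 were in parental changes or, for MCM7, in the interaction, with the GC trend removed alone or together with the replicate block. Against main log2 values of -0.05, -0.02, -0.02 and 0.00, the parental 8 h changes of MCM7, CHAF1A, MCM2 and MCM5 became 0.14, 0.16, 0.17 and 0.17 (with the block 0.137, 0.165, 0.173 and 0.174), and CDT1 went from -0.15 to 0.16. At 24 h MCM7 became 0.1997, POLD1 0.0782, CDT1 0.197 and TIPIN -0.0028 (with the block 0.200, 0.0784, 0.198 and -0.00284). At 48 h POLE became 0.00319, PRIM1 -0.235 and WDHD1 -0.0874 (with the block 0.00403, -0.234 and -0.0875). The MCM7 interaction at 8 h went from 0.02 to -0.22 in both. The cause was not tested.

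Shares of all tested genes under the settings below are not given, so no shift can be called particular to the 47. Counts moved by over 1.5 times as follows. Parental cells: with only the compared groups 9 higher and 0 lower at 8 h, 0 lower at 24 h, 0 higher and 16 lower at 48 h; with the GC trend removed, with or without the block, 0 lower at 8 h, 0 lower at 24 h and 0 higher at 48 h; with upper-quartile scaling 4 lower at 24 h. MYC-ER against parental: 1 lower at 24 h in place of 2 with upper-quartile scaling, DESeq2 size factors, library size alone, at least 10 counts in every library and the GC trend removed (with or without the block), and 1 higher at 48 h in place of 0 with library size alone and upper-quartile scaling. MYC-ER at 48 h against 0 h: 1 lower in place of 3 with library size alone. Leaving out 1 library gave 2 to 6 lower in parental cells at 8 h, 2 to 7 lower at 24 h and 1 to 6 higher at 48 h, 1 to 2 lower in the lines at 24 h, and 1 to 2 lower in the interaction at 48 h. The counts of higher genes in MYC-ER cells were 41 to 42, 47 to 47 and 37 to 41 at 8, 24 and 48 h.

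Scaling by library size alone moved the median of all genes by over 0.1, to 0.0937 and 0.191 for MYC-ER at 24 and 48 h, 0.256 between 8 and 24 h, 0.142 and 0.16 between the lines at 24 and 48 h, and -0.197 and 0.175 for the interaction at 8 and 48 h. Upper-quartile scaling moved it to -0.242 for MYC-ER at 8 h, 0.155 between 8 and 24 h, 0.119 and 0.16 between the lines at 24 and 48 h, and -0.179 for the interaction at 8 h. Without the filter it was 0 for MYC-ER at 8 h.

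Same-numbered libraries of different groups did not deviate together: 84 correlations ran from -0.08 to 0.09, and 12 of 24 libraries correlated best with their own number. The numbers were therefore not taken as pairs. With the replicate number as a block, 42 genes were higher in MYC-ER cells at 8 h, as without it, and 2 member values lost their call, MCM3 in MYC-ER cells at 48 h (0.14, adjusted p = 0.0525) and ORC1 in parental cells at 48 h (-0.16, adjusted p = 0.0638). The lowest genes set the limit of depth: CDC45, MCM10 and POLE2 stood at under 0.5 CPM in MYC-ER cells at 0 h.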
